A study of Mus musculus with 14 samples.

Results

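Collagens are the trimeric proteins that give the extracellular matrix its tensile strength. All rows of the expression table whose symbol has the collagen form (Col, a type number, a and a chain number) were taken, which gave 44 genes of 46904, and all 44 were among the 46102 genes tested. They were grouped by what their proteins build: 11 fibrillar chains, 9 chains of basement membranes, 9 of networks and beaded filaments, 9 FACIT chains (fibril-associated collagens with interrupted triple helices), 4 transmembrane chains and 2 others. The measurements came from mice of C57BL/6J background that carry both copies of the cortistatin gene (Cort+/+) or lack the gene (Cort-/-). All were male by the study's methods, 12 weeks old, and had the left middle cerebral artery closed by a filament for 20 min (MCAO). After 48 h, polyadenylated RNA of the contralateral (CL) and of the ischemic (MCAO) hemisphere was sequenced. Cort+/+ mice gave 3 libraries for each hemisphere (MCAO numbers 2, 3 and 4), Cort-/- mice gave 3 for CL and 5 for MCAO, and the labels do not tie a CL to an MCAO library of the same animal. A CL hemisphere is thus the uninjured side of an operated animal, and no hemisphere of an unoperated mouse was among these libraries.

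Collagen chains wind in trimers into a triple helix. Types I, III and V then assemble into banded fibrils, type IV forms the sheet under endothelium and around pericytes, and type VI makes beaded microfilaments. The healthy brain holds little fibrillar collagen outside the meninges and large vessels, whereas type IV collagen lines every cerebral vessel. Newly made chains are hydroxylated and folded in the endoplasmic reticulum with the chaperone Serpinh1, secreted, trimmed by proteases and cross-linked by lysyl oxidases.

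At 48 h few collagen mRNAs passed the test between hemispheres. With limma on log2(RPKM + 0.1) and adjustment over all 46102 genes, 0 of 44 collagens passed an adjusted p of 0.05 in Cort+/+ mice and 0 of 44 in Cort-/- mice. Averaged over genotypes, 2 of 44 rose, Col5a2 and Col16a1. Over all genes tested, 0.0108% passed in Cort+/+ mice, 1.72% in Cort-/- mice and 3.43% in the average, so that 2 of 44, or 4.55%, lay close to the share of all genes. At an unadjusted p under 0.05 there were 2 collagens in Cort+/+ mice (7.87% of all genes), 8 in Cort-/- mice (12.7%) and 14 in the average (14.9%), of which 12 were higher and 2 lower in MCAO hemispheres. RPKM are read counts divided by the length of the gene and by the depth of the library, and a log2FC below is always MCAO minus CL, or Cort-/- minus Cort+/+, on the log2(RPKM + 0.1) scale.

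The library sizes behind the RPKM were 26425871 to 43521577 reads. Cort, the deleted gene, had 64 to 139 reads in each Cort+/+ library and 0 to 4 in each Cort-/- library, as the labels state. Several cell markers moved with the hemisphere. Of 6 microglia markers 5 rose in the average, and the summed level of the list was 90.6 to 99.9 and 91.3 to 107.0 RPKM in CL against 121.3 to 189.8 and 138.0 to 209.6 RPKM in MCAO libraries of Cort+/+ and Cort-/- mice. All 8 striatal neuron markers fell, from sums of 397.3 to 446.1 and 393.0 to 418.2 RPKM in CL to 229.9 to 372.1 and 194.8 to 292.9 RPKM in MCAO libraries. Of 12 markers of fibroblasts and leptomeningeal cells, the cells that make most fibrillar collagen in the brain's coverings, 3 rose and all 12 had a log2FC above 0. Their sum was 71.4 to 77.9 RPKM in CL and 86.7 to 107.7 RPKM in MCAO libraries of Cort+/+ mice, and 73.4 to 85.0 against 91.0 to 132.6 RPKM in Cort-/- mice. No marker of these 3 lists was at 0 in any library. Of 7 astrocyte markers 3 rose, and of 8 choroid plexus, 6 oligodendrocyte and 6 oligodendrocyte precursor markers 0 passed. The part of these cell types in the collagen values was not tested, and in whole hemispheres more cells of a type and more RNA per cell cannot be told apart.

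The collagens spanned a wide range of levels per gene length. Col6a1, a chain of the beaded filaments, was highest with a mean of 19.5 RPKM over the 14 libraries, followed by the type IV chains Col4a2 (11.6 RPKM) and Col4a1 (10.3 RPKM), and by the neuronal transmembrane collagen Col25a1 (9.003 RPKM). Together these 4 genes held 39.3 to 46.6% of the summed RPKM of all collagens. Of the 44 genes, 26 had a mean of at least 1 RPKM. Col10a1, the hypertrophic cartilage collagen, was lowest at 0.0849 RPKM with 3 to 14 reads per library. In summed RPKM the fibrillar class took 18.8 to 24.9% of the collagen total, the basement membrane class 20.5 to 26.9%, networks 21.0 to 27.1%, FACIT chains 18.4 to 21.9% and transmembrane chains 8.60 to 12.9%.

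**Figure D1:**
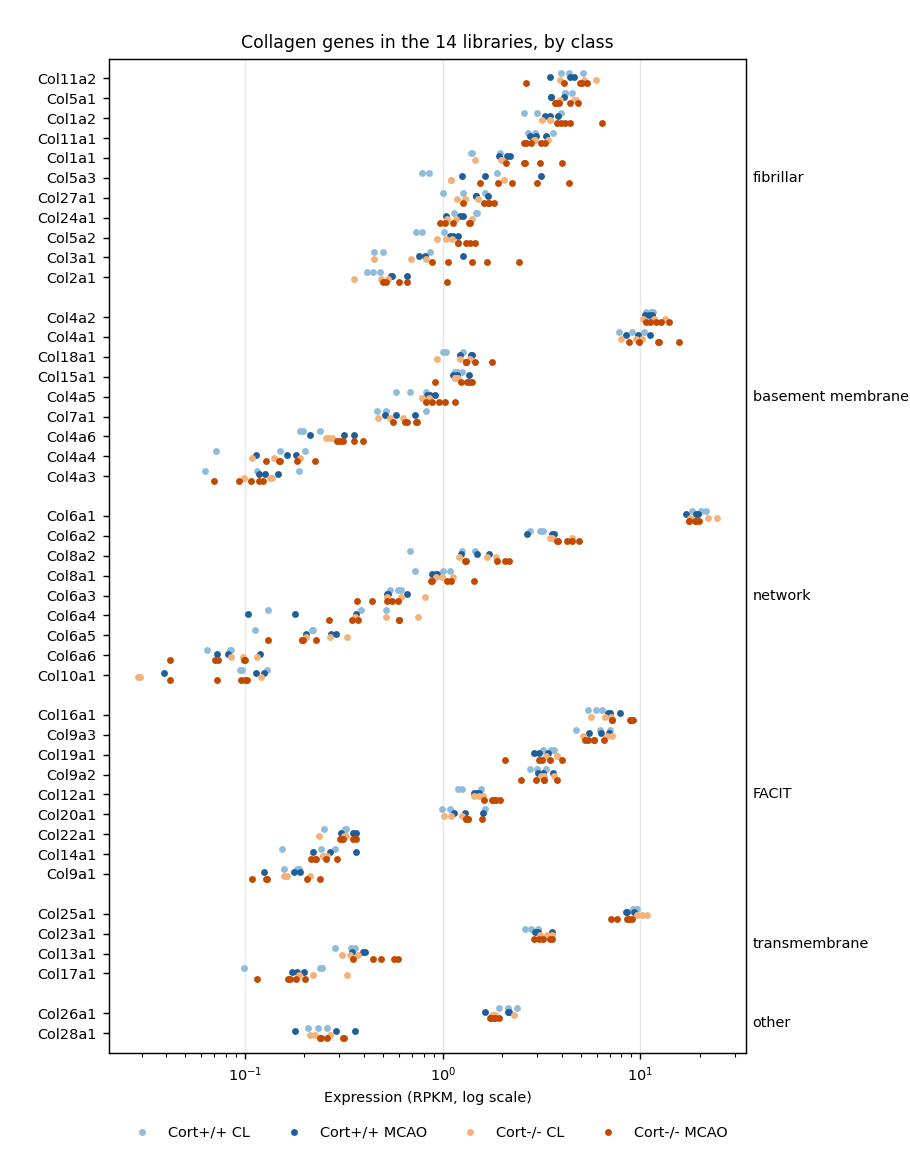
Expression of the 44 collagen genes in RPKM (log scale) in each of the 14 libraries, with genes ordered by class and by mean level, and colours for the 4 groups. Col6a1, Col4a2, Col4a1 and Col25a1 have the highest means, although Col16a1 exceeds Col25a1 in Cort-/- MCAO replicates 1, 4 and 5, and for most genes the 4 groups overlap.

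The summed level of all 44 collagens was 110 ± 5.83 RPKM in CL and 113 ± 1.99 RPKM in MCAO hemispheres of Cort+/+ mice (SD, n = 3 each). In Cort-/- mice it was 118 ± 9.71 RPKM (SD, n = 3) and 122 ± 5.26 RPKM (SD, n = 5). These differences are smaller than the spread between CL libraries. The class sums did not move alike. The fibrillar sum was 23.1, 23.6 and 24.9 RPKM in the CL and 26.4 to 31.6 RPKM in the 5 MCAO libraries of Cort-/- mice, which did not overlap. In Cort+/+ mice the fibrillar sums of 20.6 to 23.2 RPKM in CL and 22.6 to 24.7 RPKM in MCAO did overlap. The transmembrane sum of Cort-/- mice was 13.5 to 15.0 RPKM in CL and 10.9 to 12.9 RPKM in MCAO libraries, again without overlap and in the other direction. Most of this sum is Col25a1, with means of 10.2 RPKM in CL and 8.21 RPKM in MCAO libraries of Cort-/- mice. Col13a1 of the same class was higher in MCAO there, with means of 0.340 and 0.489 RPKM. In Cort+/+ mice the transmembrane sum was 12.3 to 13.2 against 11.9 to 13.4 RPKM, which overlapped. The basement membrane, network, FACIT and other sums overlapped between hemispheres in both genotypes. No class sum was tested.

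The promoters shown are those of the only collagens that passed the test (Col5a2 and Col16a1) and of the fibrillar chains Col1a1 and Col3a1, which were highest in the same MCAO library and had the largest log2FC next to Col5a3. Each run is the 250 bases before the start of the gene's canonical transcript (GENCODE M39), read from GRCm39 on the gene's strand, 5′ to 3′. Capitals mark matches on either strand to 3 motifs, and overlapping matches run together. The CCAAT box was searched by these 5 letters. The letters searched for the TATA box were TATAA. For the GC box, a site of Sp-family factors, they were GGGCGG. Col1a1 is read on the plus strand from chr11:94826800-94827049, Col3a1 on the plus strand from chr1:45350448-45350697, Col5a2 on the minus strand from chr1:45542443-45542692 and Col16a1 on the plus strand from chr4:129940904-129941153.
Col1a1: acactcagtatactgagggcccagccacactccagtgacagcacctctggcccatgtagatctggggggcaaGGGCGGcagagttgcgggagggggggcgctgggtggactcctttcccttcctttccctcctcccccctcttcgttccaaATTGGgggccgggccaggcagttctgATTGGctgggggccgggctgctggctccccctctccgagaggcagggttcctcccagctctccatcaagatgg
Col3a1: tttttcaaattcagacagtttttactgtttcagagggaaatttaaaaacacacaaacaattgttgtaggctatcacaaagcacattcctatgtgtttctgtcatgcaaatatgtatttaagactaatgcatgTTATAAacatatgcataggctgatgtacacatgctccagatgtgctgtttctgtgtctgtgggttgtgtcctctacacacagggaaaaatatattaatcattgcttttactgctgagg
Col5a2: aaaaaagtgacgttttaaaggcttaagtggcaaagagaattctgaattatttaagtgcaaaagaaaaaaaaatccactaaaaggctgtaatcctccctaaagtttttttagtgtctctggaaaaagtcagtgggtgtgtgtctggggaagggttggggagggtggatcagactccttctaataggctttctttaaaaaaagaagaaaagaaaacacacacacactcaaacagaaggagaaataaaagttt
Col16a1: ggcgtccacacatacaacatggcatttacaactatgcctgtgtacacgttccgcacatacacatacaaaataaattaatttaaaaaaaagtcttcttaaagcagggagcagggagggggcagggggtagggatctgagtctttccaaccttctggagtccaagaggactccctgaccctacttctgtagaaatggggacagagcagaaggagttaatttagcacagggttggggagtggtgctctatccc

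The Col1a1 run holds 2 CCAAT boxes, at positions -99 and -73 from the start and both on the minus strand, and 1 GC box at -178. The Col3a1 run holds a palindromic pair of TATA boxes at -118 and -117, and the Col5a2 and Col16a1 runs hold none of the 3 motifs. GC content was 64.8% for Col1a1, 35.2% for Col3a1, 36.0% for Col5a2 and 47.2% for Col16a1. Over the 250 bases before 21770 protein-coding genes, 36.5% held a CCAAT box, 21.6% a TATA box and 36.3% a GC box. Among the 44 collagens these were 34.1%, 27.3% and 47.7%. Col1a1 and Col3a1 thus shared no motif of the 3 in these windows. Such matches are letters only, and say nothing of whether a factor binds.

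The fibrillar class had the highest median log2FC of the 6 classes in each genotype. It was 0.26 in Cort+/+ and 0.32 in Cort-/- mice, beside 0.11 and 0.10 over all 44 collagens and 0.00 over all genes tested. Of its 11 genes, 7 were above 0 in each genotype and 1 passed in the average.

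Col5a2, the second chain of type V collagen, which starts and limits fibrils of type I, was the fibrillar gene that passed. It measured 0.786, 1.02 and 0.736 RPKM in the CL and 1.19, 1.09 and 1.13 RPKM in the MCAO hemispheres of Cort+/+ mice. The Cort-/- values were 0.937, 1.04 and 1.11 RPKM in CL and 1.46, 1.20, 1.37, 1.20 and 1.32 RPKM in MCAO. Every MCAO library lay above every CL library of its genotype. The log2FC was 0.39 in Cort+/+ and 0.32 in Cort-/- mice, and averaged 0.36 with SE 0.0871 (limma, adjusted p = 0.0421), 1.28-fold. Col16a1 was the only other collagen of which this held in both genotypes, so 2 of 44, beside 2.13% of all genes tested.

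Col16a1 is a FACIT chain, which lies on fibrils and does not form them itself. It measured 5.99, 6.37 and 5.41 RPKM in CL and 6.99, 7.89 and 6.88 RPKM in MCAO hemispheres of Cort+/+ mice. Among Cort-/- mice the CL values were 5.64, 7.13 and 6.65 RPKM and the MCAO values 9.20, 7.18, 7.21, 8.85 and 8.98 RPKM. The highest CL value of Cort-/- mice lay just under the lowest MCAO value. The log2FC was 0.29 and 0.35 in Cort+/+ and Cort-/- mice and averaged 0.32 with SE 0.0781 (limma, adjusted p = 0.0429), 1.25-fold.

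Both calls were narrow. With 1 library left out, Col5a2 passed in limma in 1 of 14 repeats, without Cort+/+ CL replicate 2 (adjusted p = 0.0193), and missed in the other 13, with adjusted p from 0.0501 to 0.109 and log2FC from 0.31 to 0.38. In limma Col16a1 passed without Cort-/- CL replicate 2 (adjusted p = 0.0407), Cort-/- MCAO replicate 2 (0.0310) or Cort-/- MCAO replicate 3 (0.0246) and missed in the other 11, with adjusted p from 0.0511 to 0.120 and log2FC from 0.27 to 0.35. Neither changed sign under any of 26 alternatives. When the test was limited to genes averaging 0.5 RPKM or more, which left 31 collagens, 5 passed in the average (12.5% of all genes tested there): Col1a1, Col3a1, Col5a2 and Col16a1 rose and Col25a1 fell.

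Col3a1, the chain of type III collagen in vessel walls and early scars, had the largest averaged difference among collagens of at least 1 RPKM. It measured 0.867, 0.499 and 0.448 RPKM in CL and 0.815, 1.27 and 0.755 RPKM in MCAO hemispheres of Cort+/+ mice, where the groups overlapped through CL replicate 1. Its values in Cort-/- mice were 0.688, 0.821 and 0.450 RPKM in CL and 2.42, 1.41, 1.07, 1.68 and 0.886 RPKM in MCAO, with no overlap. The log2FC was 0.58 (SE 0.340; 95% interval -0.15 to 1.32) in Cort+/+ and 1.04 (SE 0.304; 95% interval 0.38 to 1.69) in Cort-/- mice, with limma adjusted p of 0.772 and 0.121. The average was 0.81 (limma, adjusted p = 0.0783), and it passed without Cort+/+ CL replicate 1 (limma, adjusted p = 0.0489).

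The type I chains Col1a1 and Col1a2, which wind together into the main fibril of skin, bone and scar, followed the same libraries. Col1a1 was 1.96, 1.41 and 1.39 RPKM in CL and 1.92, 2.12 and 2.18 RPKM in MCAO hemispheres of Cort+/+ mice. In Cort-/- mice it was 1.97, 1.99 and 1.46 RPKM in CL and 4.03, 3.09, 2.57, 2.61 and 2.09 RPKM in MCAO. Cort-/- MCAO replicate 1 held the highest value of Col1a1, Col1a2 and Col3a1, and Cort+/+ CL replicate 1 was the highest CL library of Cort+/+ mice for all 3. The log2FC of Col1a1 was 0.38 in Cort+/+ (SE 0.203) and 0.62 in Cort-/- mice (SE 0.182), with limma adjusted p of 0.726 and 0.117, and averaged 0.50 (adjusted p = 0.0672). The average passed in limma without Cort-/- MCAO replicate 5 (adjusted p = 0.0373) and without Cort+/+ CL replicate 1 (adjusted p = 0.0428).

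Col1a2 was 3.97, 3.02 and 2.57 RPKM in CL and 3.28, 3.83 and 3.48 RPKM in MCAO hemispheres of Cort+/+ mice, which overlapped. For Cort-/- mice it was 3.50, 3.51 and 3.19 RPKM in CL and 6.38, 4.42, 3.95, 4.17 and 3.80 RPKM in MCAO, which did not. Its log2FC was 0.16 (95% interval -0.22 to 0.55) and 0.38 (95% interval 0.04 to 0.73) in Cort+/+ and Cort-/- mice, with limma adjusted p of 0.898 and 0.315.

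Col5a3, the third chain of type V, varied widely among libraries of 1 group. It was 1.89, 0.851 and 0.788 RPKM in CL and 1.25, 3.13 and 1.64 RPKM in MCAO libraries of Cort+/+ mice. The Cort-/- libraries held 1.10, 2.04 and 1.10 RPKM in CL and 3.0, 1.90, 1.55, 4.37 and 2.23 RPKM in MCAO. The groups overlapped in both genotypes, and the log2FC of 0.72 and 0.80 had SE 0.424 and 0.380. By contrast Col5a1, the first chain of type V, had a log2FC of -0.19 in Cort+/+ mice, where its 3 MCAO libraries (3.55, 3.54 and 4.12 RPKM) all lay under its CL libraries (4.52, 4.16 and 4.14 RPKM), and of -0.11 in Cort-/- mice, where CL values of 3.93, 4.61 and 4.73 RPKM overlapped MCAO values of 3.72, 3.74, 3.87, 4.83 and 4.39 RPKM. Col11a2, a chain of thin cartilage fibrils, had the highest mean of the fibrillar genes, 4.51 RPKM beside 4.13 RPKM for Col5a1. It was 3.95, 5.13 and 4.36 RPKM in CL and 4.39, 3.50 and 4.59 RPKM in MCAO libraries of Cort+/+ mice, and 5.21, 3.92 and 5.99 against 4.11, 4.95, 5.38, 2.65 and 5.05 RPKM in Cort-/- mice, with overlap in both. Col2a1, Col11a1, Col24a1 and Col27a1, the remaining fibrillar chains, had log2FC from -0.20 to 0.33 in Cort+/+ and -0.10 to 0.43 in Cort-/- mice.

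**Figure D2:**
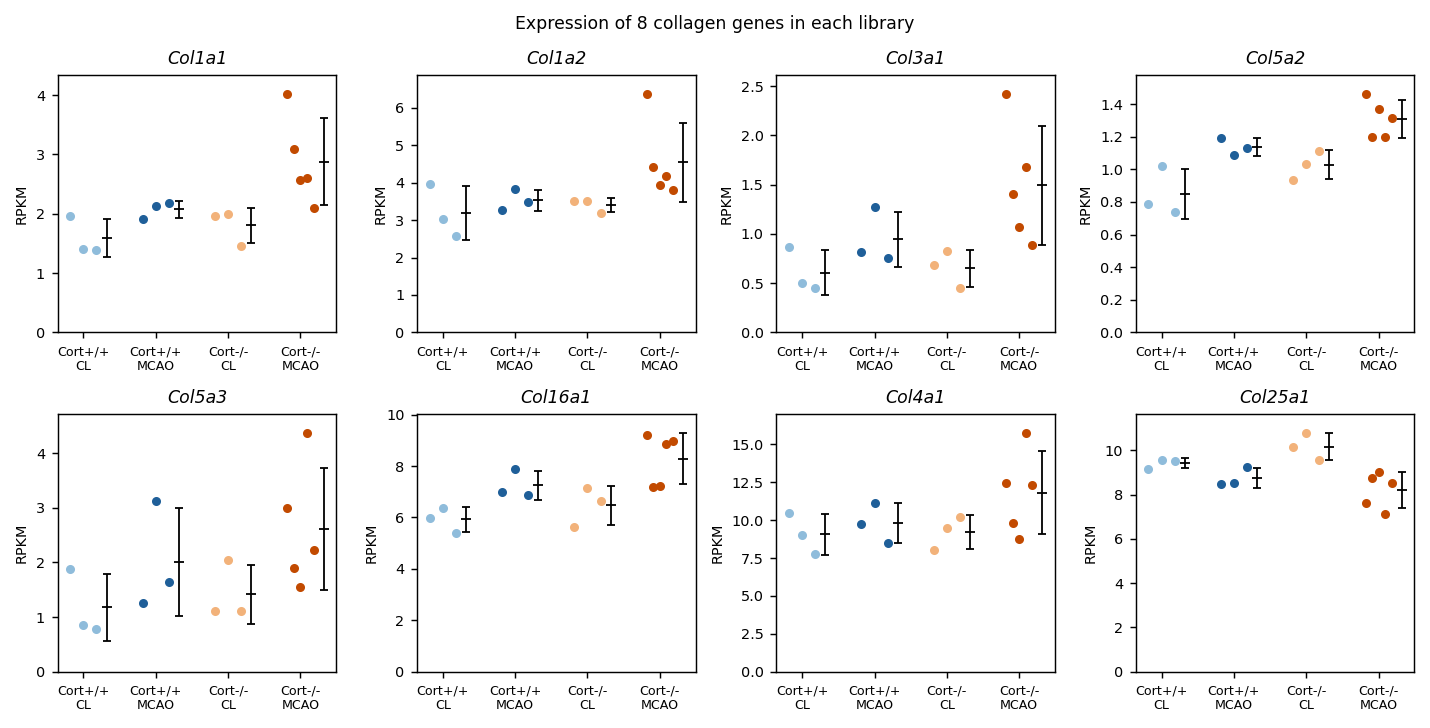
RPKM of 8 collagen genes in each library of the 4 groups (points), with the mean and SD of the group (dash and bar), each axis starting at 0. In both genotypes all MCAO values of Col5a2 and Col16a1 lie above the CL values, whereas Col1a1, Col1a2 and Col3a1 separate only in Cort-/- mice and Col25a1 is lower in MCAO libraries of Cort-/- mice.

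In all, every MCAO library lay above every CL library for 4 of 44 collagens in Cort+/+ mice (Col2a1, Col5a2, Col4a5 and Col16a1; 5.73% of all genes) and for 8 in Cort-/- mice (Col1a1, Col1a2, Col3a1, Col5a2, Col4a6, Col12a1, Col16a1 and Col20a1; 4.85% of all genes). The reverse held for 1 in Cort+/+ mice (Col5a1; 4.11% of all genes) and 1 in Cort-/- mice (Col25a1; 4.27%). That 8 in Cort-/- and 4 in Cort+/+ mice separated does not show a difference between genotypes, which is tested further on.

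In the basement membrane class no gene passed. Col4a1 and Col4a2 are the ubiquitous type IV chains of vascular basement membrane. Col4a2 was 11.3, 11.6 and 10.7 RPKM in CL and 11.4, 11.1 and 10.6 RPKM in MCAO libraries of Cort+/+ mice, and 10.4, 11.8 and 13.4 against 12.1, 11.1, 10.7, 13.9 and 12.7 RPKM in Cort-/- mice. Its log2FC was -0.02 (95% interval -0.24 to 0.20) and 0.03 (95% interval -0.16 to 0.23). Col4a1 was 10.5, 9.02 and 7.75 against 9.75, 11.2 and 8.49 RPKM in Cort+/+ mice. The Cort-/- libraries held 8.02, 9.49 and 10.2 RPKM in CL and 12.47, 9.79, 8.76, 15.8 and 12.3 RPKM in MCAO, with 2 of 5 values within the CL range. Its log2FC was 0.11 (95% interval -0.30 to 0.52) and 0.33 (95% interval -0.04 to 0.69). Of the endothelial markers, 2 of 10 rose in the average and all 10 had a log2FC above 0. Their sum was 72.2 to 79.6 RPKM in CL and 75.7 to 84.0 RPKM in MCAO libraries of Cort+/+ mice, and 57.5 to 68.0 against 74.2 to 95.98 RPKM in Cort-/- mice, with no marker at 0. Of 8 pericyte markers 0 passed in the average, and 3 were higher at an unadjusted p under 0.05. Their part in the type IV values was not tested.

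The minor type IV chains were low. Col4a5 had a mean of 0.855 RPKM, Col4a6 0.284 RPKM, Col4a4 0.154 RPKM and Col4a3, a kidney and lung chain, 0.117 RPKM. Col4a5 and Col4a6 had averaged log2FC of 0.26 and 0.29 (limma, adjusted p = 0.218 for Col4a5). Col18a1, the source of endostatin, was 1.27, 1.00 and 1.03 against 1.22, 1.40 and 1.38 RPKM in Cort+/+ mice and 0.935, 1.38 and 1.22 against 1.78, 1.31, 1.47, 1.32 and 1.31 RPKM in Cort-/- mice. Its groups overlapped in both genotypes, and it averaged 0.27 (limma, unadjusted p = 0.0232, adjusted p = 0.228). Col15a1, its relative in muscle and vessels, averaged 0.05. The class median was 0.10 in Cort+/+ and 0.22 in Cort-/- mice, and 8 of 9 genes were above 0 in each.

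Several collagen genes are neighbours. Col4a1 and Col4a2 lie head to head on chromosome 8 (11248423 to 11362826 and 11362471 to 11499287 in GRCm39) and their annotated 5′ ends overlap, as do those of Col4a4 and Col4a3 on chromosome 1. Reads there could be assigned to either gene unless strand was used in counting, which is not given in the sources used here. Col3a1 and Col5a2 end toward each other on chromosome 1 with 16713 bases between them (45350698 to 45395840 and 45412554 to 45542442), and Col6a1 and Col6a2 follow each other on chromosome 10. The differences of these neighbours stand side by side as follows. Col3a1 averaged 0.81 with non-overlapping groups in Cort-/- mice alone, while Col5a2 averaged 0.36 with non-overlapping groups in both.

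**Figure D3:**
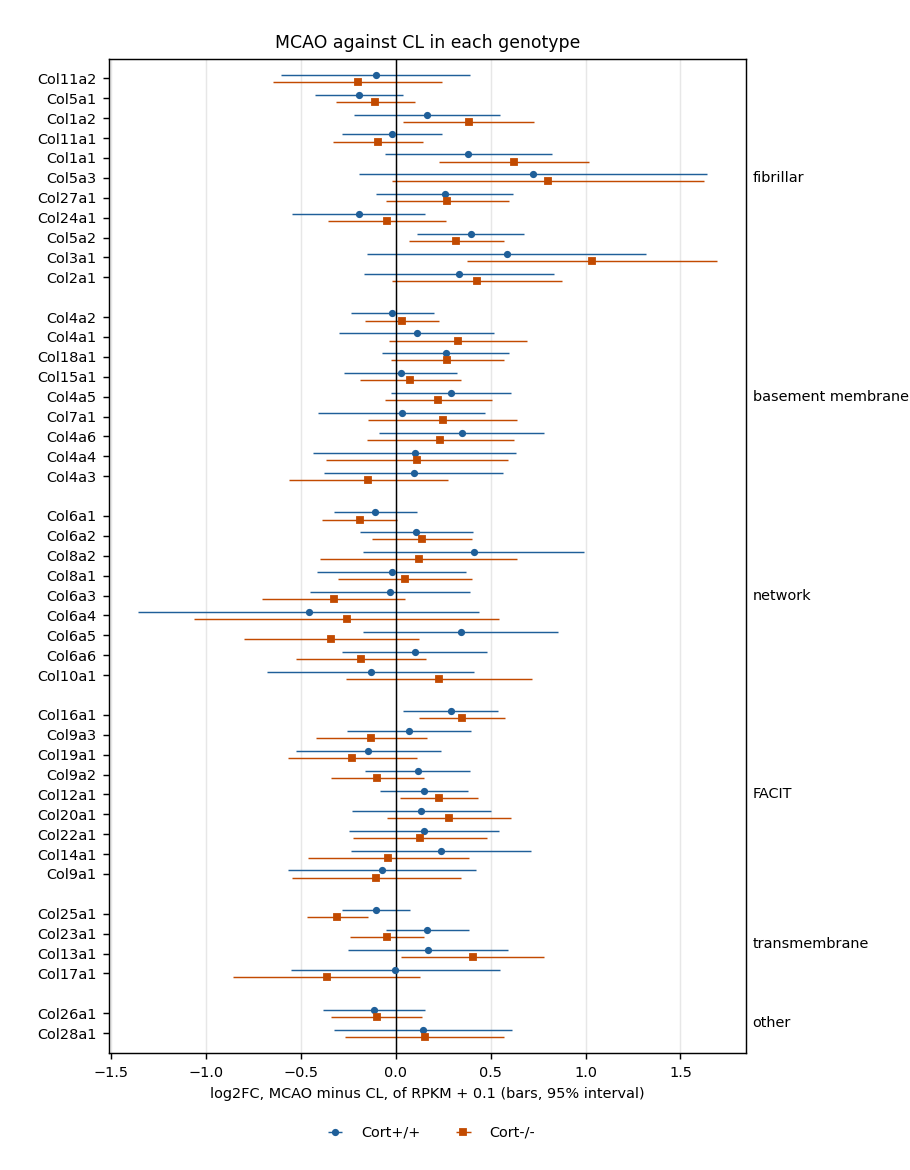
The log2FC of MCAO minus CL for each of the 44 collagens, of RPKM + 0.1, in Cort+/+ (circles) and Cort-/- mice (squares), with 95% intervals from limma, in the same gene order as in the plot of levels. Fibrillar points reach furthest to the right (Col3a1, 1.04 in Cort-/- mice), and the intervals of the 2 genotypes overlap for all genes.

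The network class had a median log2FC of -0.02 in Cort+/+ and -0.18 in Cort-/- mice. Col6a1 was 21.6, 18.2 and 20.2 RPKM in CL and 17.1, 19.5 and 19.0 RPKM in MCAO libraries of Cort+/+ mice, and 17.8, 24.5 and 22.0 against 17.7, 18.9, 19.0, 17.7 and 19.9 RPKM in Cort-/- mice. The groups overlapped in both genotypes. The average was -0.15 (limma, unadjusted p = 0.0475, adjusted p = 0.329). Its partner Col6a2 was 3.12, 2.75 and 3.21 RPKM in CL and 2.67, 3.57 and 3.65 RPKM in MCAO libraries of Cort+/+ mice, and averaged 0.12. Col8a2, a chain of the hexagonal lattice around vessels and in the cornea, was 1.25, 1.46 and 0.681 against 1.71, 1.24 and 1.50 RPKM in Cort+/+ mice and 1.68, 1.86 and 1.21 against 2.07, 1.88, 1.32, 2.17 and 1.30 RPKM in Cort-/- mice, which overlapped. Col8a1, its partner, averaged 0.01. The low chains Col6a3, Col6a4, Col6a5, Col6a6 and Col10a1 were all under 0.6 RPKM on average, with log2FC from -0.46 to 0.34 in Cort+/+ and -0.34 to 0.23 in Cort-/- mice.

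Of the FACIT class, Col16a1 is given above. Col9a3, a chain of type IX collagen that coats type II fibrils in cartilage, was 6.25, 7.01 and 4.72 RPKM in CL and 6.95, 5.49 and 6.29 RPKM in MCAO libraries of Cort+/+ mice. With 5.14, 7.17 and 6.80 against 6.55, 5.80, 5.22, 5.84 and 5.45 RPKM in Cort-/- mice, it averaged -0.03. Col19a1, which interneurons express, was 3.55, 3.68 and 3.202 against 3.43, 3.07 and 2.91 RPKM in Cort+/+ mice and 3.34, 3.80 and 3.79 against 2.06, 3.49, 3.16, 4.01 and 3.08 RPKM in Cort-/- mice, and averaged -0.19. Both overlapped between hemispheres. Col12a1, which lies on type I fibrils, was 1.53, 1.44 and 1.60 RPKM in CL and 1.62, 1.86, 1.77, 1.81 and 1.94 RPKM in MCAO libraries of Cort-/- mice, without overlap, with a log2FC of 0.23 (limma, unadjusted p = 0.0335, adjusted p = 0.323). In Cort+/+ mice it was 1.249, 1.57 and 1.195 RPKM in CL and 1.437, 1.524 and 1.488 RPKM in MCAO libraries, which overlapped. The class median was 0.13 in Cort+/+ and -0.04 in Cort-/- mice.

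Col25a1, a transmembrane collagen of neurons whose shed part is known from amyloid plaques, was the collagen nearest to a call within 1 genotype. In Cort-/- mice it was 10.1, 10.8 and 9.56 RPKM in CL and 7.61, 8.76, 9.03, 7.13 and 8.52 RPKM in MCAO, all lower. The log2FC was -0.31 (SE 0.0746; limma, adjusted p = 0.0595). In Cort+/+ mice it was 9.16, 9.58 and 9.52 RPKM in CL and 8.48, 8.52 and 9.26 RPKM in MCAO, with 1 overlapping value and a log2FC of -0.11 (SE 0.0834; limma, adjusted p = 0.887). Without Cort-/- MCAO replicate 3 the log2FC in Cort-/- mice was -0.34 (limma, adjusted p = 0.0286), and over 27 alternatives the adjusted p ran from 0.0182 to 0.249. Of 7 neuron markers 0 passed in the average, and 3 were lower at an unadjusted p under 0.05. Their sum was 1859 to 2239 and 1879 to 2007 RPKM in CL libraries of Cort+/+ and Cort-/- mice. In MCAO libraries it was 1662 to 1909 and 1655 to 1791 RPKM, with no marker at 0. All 8 striatal neuron markers fell, as given above. The part of neurons in the Col25a1 values was not tested. Col23a1, the next transmembrane chain, was 2.62, 2.79 and 3.05 against 2.91, 3.04 and 3.59 RPKM in Cort+/+ mice and 3.11, 3.58 and 3.38 against 2.90, 3.56, 3.20, 3.08 and 3.49 RPKM in Cort-/- mice, and averaged 0.06.

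Of the other 2 genes, Col26a1 was 1.92, 2.37 and 2.14 against 2.13, 1.64 and 2.17 RPKM in Cort+/+ mice and 1.83, 1.78 and 2.28 against 1.75, 1.93, 1.85, 1.73 and 1.82 RPKM in Cort-/- mice. Col28a1, a chain of glia in peripheral nerves, was lower, at 0.208, 0.260 and 0.234 against 0.289, 0.179 and 0.359 RPKM in Cort+/+ and 0.213, 0.270 and 0.226 against 0.239, 0.316, 0.313, 0.243 and 0.259 RPKM in Cort-/- mice. Both overlapped between hemispheres in both genotypes, with averaged log2FC of -0.11 and 0.15.

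Ratios of partner chains were formed for 6 pairs, of which 1 separated the hemispheres in both genotypes, 2 in a single genotype and 3 in neither. The ratio of Col5a1 to Col5a2 RPKM was 5.76, 4.07 and 5.63 in CL and 2.98, 3.25 and 3.64 in MCAO libraries of Cort+/+ mice. For Cort-/- mice it was 4.20, 4.46 and 4.24 in CL and 2.54, 3.12, 2.82, 4.03 and 3.34 in MCAO. It was lower in every MCAO library than in every CL library of the same genotype. The ratio of Col1a1 to Col1a2 was 0.501 ± 0.0383 in CL and 0.588 ± 0.0361 in MCAO of Cort+/+ mice (SD, n = 3 each), without overlap. Among Cort-/- mice it was 0.529 ± 0.0608 (SD, n = 3) and 0.632 ± 0.0533 (SD, n = 5), with overlap. The ratio of Col4a1 to Col4a2 was 0.773, 0.807 and 0.766 in CL and 1.03, 0.879, 0.823, 1.13 and 0.966 in MCAO of Cort-/- mice, all higher, while it overlapped in Cort+/+ mice at 0.727 to 0.924 and 0.801 to 1.00. The ratios of Col6a1 to Col6a2, Col8a1 to Col8a2 and Col9a2 to Col9a3 overlapped between hemispheres in both genotypes. These ratios were not tested, since they were formed from values already compared. Col5a2 alone already separated the hemispheres in both genotypes, and Col5a1 did so in the other direction in Cort+/+ mice. The Col5a1 to Col5a2 ratio is thus no separate result. How often ratios of other gene pairs separate the hemispheres was not determined, so the count of pairs has no share to stand beside.

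**Figure D4:**
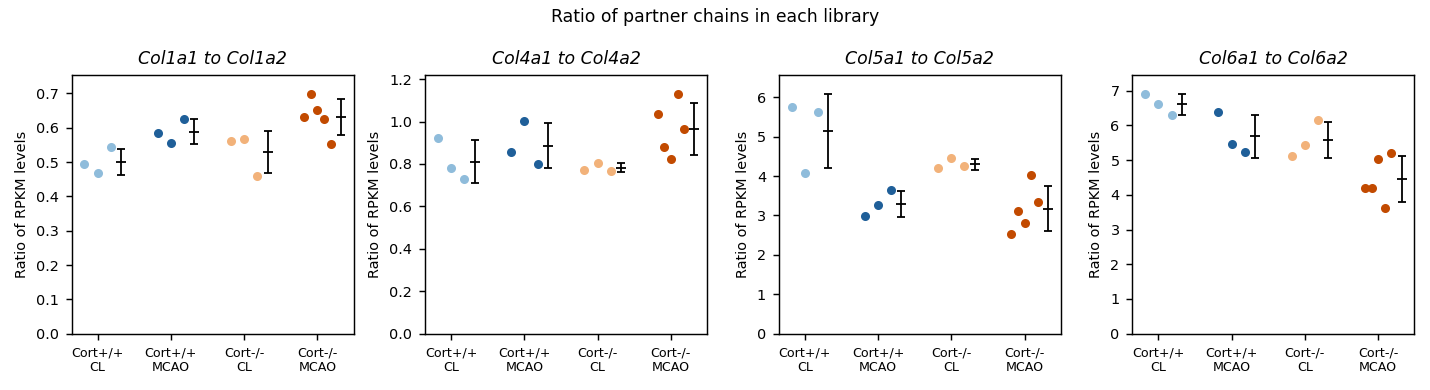
Ratio of the RPKM of 2 partner chains in each library of the 4 groups (points, with mean and SD as dash and bar), axes starting at 0. The Col5a1 to Col5a2 ratio is lower in every MCAO library than in the CL libraries of its genotype, and the Col6a1 to Col6a2 ratio overlaps.

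Of 67 genes that make, trim, bind or accompany collagen, 18 passed in the average and all 18 rose, beside 2 of 44 collagens and 3.43% of all genes. The lists were chosen with earlier results of these data known. Among genes averaging 1 RPKM or more, 837 of 15063 passed as higher and 376 as lower, a larger share than over all genes. The difference between the counts of the lists, the collagens and all genes was not tested. Of 19 genes for synthesis, folding and secretion 7 rose (median log2FC 0.16). Serpinh1, the collagen chaperone, rose by 0.64 (SE 0.0999; limma, adjusted p = 0.0045), from a mean of 5.36 to 7.79 RPKM in Cort+/+ and from 5.44 to 9.29 RPKM in Cort-/- mice. P4ha3, a prolyl hydroxylase subunit, rose by 0.64 and Plod1, a lysyl hydroxylase, by 0.49. Of 13 genes for trimming and cross-linking 2 rose (median 0.26), the lysyl oxidases Loxl1 by 0.83 and Loxl3 by 0.46, while Lox, the founding member, had a log2FC of 0.12. Of 10 collagen receptors 4 rose (median 0.25). Lair1, an inhibitory receptor of leukocytes, rose by 0.61, Mrc2, an uptake receptor, by 0.42, and the integrin chain Itgb1 by 0.38.

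Among 12 genes of matrix that lies on fibrils, 3 rose (median 0.36), the fibronectin gene Fn1 by 0.63 and the proteoglycans Dcn and Bgn by 0.53 and 0.52. Among 13 partners in basement membranes 2 rose (median 0.14), the nidogen gene Nid1 by 0.48 and the laminin chain Lamb2 by 0.23. No gene of these 5 lists passed as lower, although each list held genes with an averaged log2FC below 0. At an unadjusted p under 0.05, 1 gene for trimming and cross-linking and 1 receptor were lower in the average. Within Cort-/- mice 3, 1, 1, 2 and 0 genes of the 5 lists rose, in the order given here, and within Cort+/+ mice 0 of each, where limma called 5 genes in all. Dcn is also among the 12 fibroblast markers, of which Dcn, Igfbp2 and Aldh1a2 rose. Of 6 vascular smooth muscle markers Tagln and Des rose, the former from 2.17 to 5.22 RPKM in Cort+/+ and 2.44 to 6.71 RPKM in Cort-/- mice. However, 3 of the 6 had an averaged log2FC below 0, 1 of them at an unadjusted p under 0.05. The median of these 6 was -0.0023. The part of fibroblasts and smooth muscle cells in the values of these lists was not tested.

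**Figure D5:**
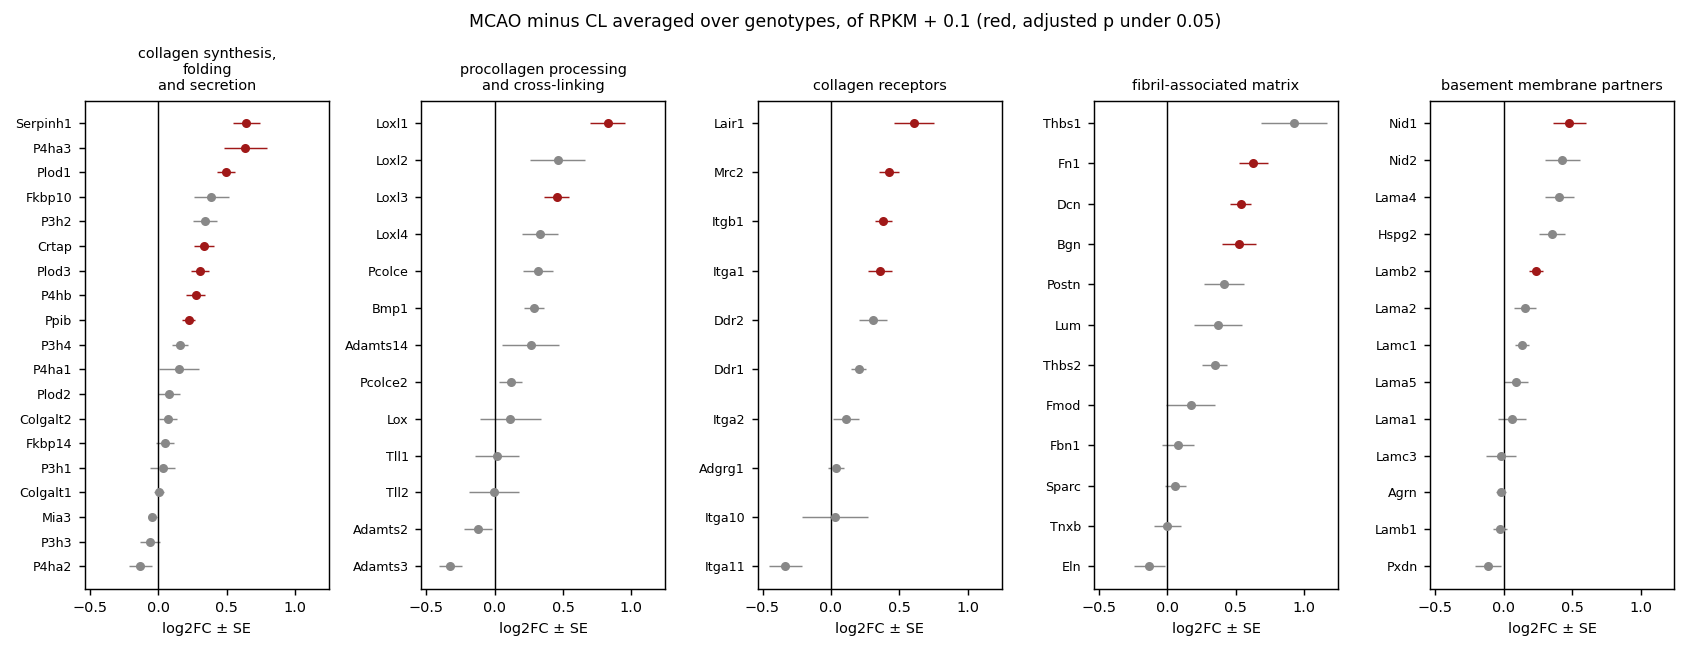
The log2FC of MCAO minus CL averaged over genotypes, of RPKM + 0.1, with SE as bars, for genes of 5 lists that make, trim, bind or accompany collagen, where red points passed an adjusted p of 0.05 in limma. All red points, 18 of 67, lie to the right of 0, led by Loxl1 at 0.83 and Serpinh1 at 0.64.

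The comparison of genotypes asked whether collagen expression differed with loss of cortistatin in the contralateral or in the ischemic hemisphere of operated mice. Between CL hemispheres 0 of 44 collagens passed (0.0152% of all genes), and 2 did at an unadjusted p under 0.05 (3.91% of all genes). Between MCAO hemispheres 0 of 44 passed (0.0174% of all genes), and 4 did unadjusted (3.82%). The test of whether the MCAO response differed between genotypes called 0 of 44 (0.00217% of all genes), and 0 also unadjusted (3.31%). The log2FC of Cort-/- minus Cort+/+ was above 0 for 37 of 44 collagens in CL (median 0.10, beside 0.00 over all genes) and for 28 of 44 in MCAO (median 0.06). Collagens are not independent of each other, so these counts carry no test. Cell markers also differed between CL hemispheres. All 10 endothelial, all 6 oligodendrocyte and all 8 striatal neuron markers were below 0 there (medians -0.24, -0.17 and -0.07), though 0 passed. The other marker lists held genes on both sides of 0. The part of these cell types in the collagen differences was not tested. All Cort-/- libraries lay above all Cort+/+ libraries for 4 collagens in CL (Col4a6, Col6a2, Col6a6 and Col23a1; 3.9% of all genes) and for 3 in MCAO (Col5a2, Col6a2 and Col12a1; 0.861%).

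Col6a2 was the only collagen whose genotypes did not overlap in either hemisphere. In CL it was 3.12, 2.75 and 3.21 RPKM in Cort+/+ and 3.48, 4.50 and 3.57 RPKM in Cort-/- mice. In MCAO it was 2.67, 3.57 and 3.65 RPKM against 4.23, 4.50, 3.77, 4.88 and 3.82 RPKM. The log2FC of Cort-/- minus Cort+/+ was 0.33 (SE 0.137; unadjusted p = 0.0316) in CL and 0.36 (SE 0.123; unadjusted p = 0.0115) in MCAO in limma, both with adjusted p = 1. Col23a1 in CL was 2.62, 2.79 and 3.05 RPKM in Cort+/+ and 3.11, 3.58 and 3.38 RPKM in Cort-/- mice, with a log2FC of 0.24 (limma, unadjusted p = 0.0303, adjusted p = 1), and 0.03 in MCAO. Col8a2 had the largest difference between CL hemispheres among collagens of at least 1 RPKM, 0.49 (95% interval -0.09 to 1.07).

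Between MCAO hemispheres Col3a1 differed by 0.56 (95% interval -0.10 to 1.22) and Col1a1 by 0.42 (95% interval 0.03 to 0.82; limma, unadjusted p = 0.0369, adjusted p = 1). Cort-/- MCAO replicate 1 was highest for both, and Cort-/- MCAO replicate 5, at 0.886 and 2.09 RPKM, lay within the range of Cort+/+ mice. The difference in response was 0.45 for Col3a1 (95% interval -0.54 to 1.44), 0.24 for Col1a1 (-0.35 to 0.83) and 0.22 for Col1a2 (-0.30 to 0.74). All 3 intervals include 0, and that of Col3a1 also includes a log2FC of 1, which is a doubling.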

How the data were processed

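PolyA-selected, stranded RNA-seq libraries of 14 mouse hemispheres were analysed. The authors deposited RPKM per gene, made with the reanalyzerGSE pipeline on GRCm39 with GENCODE M28 and a filter on low expression, without pooling replicates. The aligner, gene lengths and the strand setting of counting are not given in the sources used here. The methods state 5 MCAO replicates and that only clearly grouped replicates were kept. Cort+/+ MCAO replicates 1 and 5 were not analysed here.

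Within each library, low RPKM values were whole multiples of 1 read. Whole reads were thus recovered for 495656 of 495656 values above 0 (tolerance 0.02 reads). Their totals of 50264769 to 83443915 per library exceed the library sizes of 26425871 to 43521577 in the RPKM. The recovered reads of a gene can thus be a multiple of its true reads. For Col1a2 and Col5a2, for example, all recovered counts were even. The number of libraries and their depth limit the precision of low genes. Replicates were not copies of each other (chi-square per degree of freedom 9.63 to 40.5 on recovered reads, which such multiples would raise). The labels do not say which libraries share an animal, so p-values measure the spread between these samples, part of which may be technical.

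Levels were tested with limma 3.58.1 in R 4.3.3 on log2(RPKM + 0.1), which understates differences of low genes. The fit used group means over 14 libraries, moderated variances with a trend, and 46102 of 46904 genes, those above 0 in at least 2 libraries. P-values were two-sided and adjusted by Benjamini-Hochberg over all genes tested, with a threshold of 0.05. The study fitted a count model, whereas the deposited unit called for limma. Tables were handled in Python 3.11.15 with pandas 2.3.3. The fit was tested on simulated data.

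The collagens, their classes and the gene lists were chosen with earlier results of these data known. Values per library are given for collagens that passed, the 3 highest of each class (2 in classes under 5 genes), the 5 of largest difference per comparison among those averaging 1 RPKM or more, and Col1a2. They are also given for Col12a1, which these rules did not name. Other pseudocounts, filters, scalings, weights, voom on recovered reads, a replicate block and leaving out each library were the alternatives. Voom with the filter of 0.5 RPKM was chosen after seeing the data. Promoter windows were read from GRCm39 with GENCODE M39 starts.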

Additional observations from a re-analysis of the deposited data

Results flagged for a closer look

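Among the 5 Cort-/- MCAO libraries, the highest or lowest value of each of the 44 collagens was compared with its nearest neighbour, and its gap was divided by the range of the group. The gap passed Dixon's critical value of 0.710 for 3 of 44 genes, where chance alone flags about 1 in 20 groups. Replicate 1 stood apart for Col1a2 (0.758 of the range), at 6.38 RPKM against 3.80 to 4.42 RPKM in the other libraries, and for Col2a1, the main chain of cartilage fibrils (0.715 of the range), at 1.05 RPKM against 0.501 to 0.657 RPKM. Replicate 5 stood apart for Col20a1, a FACIT chain (0.884 of the range), at 1.58 RPKM against 1.32 to 1.35 RPKM. Groups of 3 libraries were not tested in this way.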

How the results depend on the processing

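Averaged over genotypes, 2 collagens passed. This count became 5 (4 higher, 1 lower) with voom on recovered reads and with only genes averaging 0.5 RPKM or more, 6 (5 higher, 1 lower) with both, 1 without a trend, with a pseudocount of 1 RPKM or with quantile normalization, and 0 to 2 with 1 library left out. Fewer genes are tested with the 0.5 RPKM filter, and the cause of the other shifts was not tested. The voom fits rest on recovered reads, which for some genes can be multiples of the true reads. Within Cort-/- mice the count of 0 became 1, Col25a1 lower, with voom, with the 0.5 RPKM filter and with both, and ran from 0 to 1 with 1 library left out. In the other 4 comparisons it was 0 under all alternatives run. Replicate numbers are shared between groups. Deviations from the group mean in same-numbered CL and MCAO libraries had r of 0.316 and -0.141 in Cort+/+ and -0.0645, -0.239 and 0.0271 in Cort-/- mice. For differently numbered libraries r ran from -0.184 to 0.270 in Cort+/+ and from -0.316 to 0.404 in Cort-/- mice. In Cort+/+ mice CL replicates 1, 2 and 3 had their highest r with MCAO replicates 3, 2 and 4 (0.270, 0.316 and 0.268). In Cort-/- mice CL replicates 1, 2 and 3 had it with MCAO replicates 2, 4 and 5 (0.232, 0.38 and 0.404). Whether libraries of different numbers share an animal was not tested. The main fit and the overlap counts treated all libraries as separate, so they would miss differences within an animal. With the replicate block, which goes by number, the averaged count was 1 (Col1a1, log2FC 0.64; limma, adjusted p = 0.0430). The Col8a2 difference in response between genotypes was -0.29, and with 1 library left out ran from -0.49 (without Cort+/+ CL replicate 2) to 0.0113 (without Cort+/+ CL replicate 3), where its sign turned. Other scalings moved the median of genes averaging 1 RPKM or more by at most 0.0591. This largest shift came from scaling libraries to the same summed RPKM, for Cort-/- minus Cort+/+ in CL. The size of difference that could be detected for low collagens was not tested.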
